A study of Mus musculus with 2 samples.

Results

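The epithelium of the small intestine is a sheet of cells between which TCRαβ+CD8αα+ intraepithelial lymphocytes (IELs) lie, and its genes were read here on arrays of those sorted lymphocytes. The genes were a list of 49 names that mark the absorptive, goblet, Paneth, enteroendocrine and stem cells of this epithelium, its junctions and its transcription factors. A gene was taken from the arrays when the RefSeq accession of a probe resolved to its symbol, which gave 48 of the 49 genes, out of 20887 named genes on the arrays. No probe was matched to *Olfm4*. Of the 48 genes, 47 gave a signal well above background on both arrays, and *Lgr5* did so on neither.

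The cells came from the small intestine of C57BL/6 mice aged 8 to 12 weeks, males and females pooled. The array labelled Control held RNA of mice with floxed *Rbpj* alleles (Rbpjf/f), and the array labelled RFF4 held RNA of CD4-Cre Rbpjf/f mice. Rbpj is the DNA-binding partner of the Notch receptors, and both genotypes carried the floxed alleles by their labels. The study used CD4-Cre to delete *Rbpj* in T cells, and in which cells it was deleted was not tested here. The study's text describes its control mice as carrying CD4-Cre and unfloxed *Rbpj*, which the labels do not. IELs were released with EDTA, taken from a Percoll gradient and sorted as cells with TCRβ and CD8α but without TCRγδ, CD4 and CD8β. RNA of several isolations was pooled, 150 ng was labelled with Cy3, and 1 array was hybridized per genotype, both on the same slide. A single array stands for each genotype, so the differences describe these 2 arrays and carry no test, standard error or p-value.

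Absorptive enterocytes digest and take up nutrients through a brush border of microvilli and pack dietary fat into lipoproteins. Goblet cells secrete the mucus, Paneth cells at the base of the crypt secrete antimicrobial proteins, and enteroendocrine cells release peptide hormones. All arise from stem cells of the crypt, under transcription factors such as Cdx2 and Hnf4a, and are held together by cadherins, claudins and keratin filaments. IELs lie between these cells, and which cells gave the epithelial signals on the arrays was not tested.

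Signals are given as log2 values relative to the 75th percentile of the array, so that 0 is the level below which 75% of the gene spots lie. Differences are RFF4 minus Control, and of each pair of signals the array labelled Control comes first. Of 59305 gene spots, 57.2% were well above background on the array labelled Control and 49.7% on the array labelled RFF4, with a median signal of 9.47 and 5.78 times background and 0 saturated spots. Of the 20887 named genes, 13513 gave a difference. The SD of a log2 difference from repeated spots was 0.16, which covers technical error between spots and not mice, isolations or labelling. *Rbpj* itself was not lower on the array labelled RFF4 with this scaling. Its signals were 1.96 and 2.28, a difference of 0.32, and its other probe differed by 0.82. With equal spike-in controls both probes turned lower, to −0.80 and −0.30, so the direction of *Rbpj* depends on the scaling. Whether either probe reads the floxed exons is not given in the files, and the arrays are therefore named by their labels. In RNA of a pool, more cells of a type and more RNA per cell cannot be told apart.

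Of the 47 epithelial genes measured, 46 were higher on the array labelled RFF4, and 40 of 47 when the spike-in controls of the arrays were set equal. Over all genes 48.9% were higher with the scaling used and 9.98% with equal spike-in controls. With the scaling used, 42 (89.4%) were more than 2-fold higher and 0 more than 2-fold lower, but with equal spike-in controls only 5 were more than 2-fold higher and 2 more than 2-fold lower. Over all genes measured, 12.3% (1667 of 13513) were more than 2-fold higher and 5.05% (683) more than 2-fold lower with the scaling used. With equal spike-in controls these shares were 1.39% and 56.9%. The median difference of the epithelial genes was 1.59, against −0.01 over all genes. Setting the spike-in controls equal lowered the difference of every gene of the list by 1.12, to a median of 0.47. The median of all genes was then −1.1, over 14212 genes in place of 13513, and the medians lay 1.57 apart, where they lay 1.61 apart with the scaling used. Which of these scales reflects the RNA in the cells cannot be told from 2 arrays.

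The differences of the epithelial genes lay between 2- and 4-fold higher for 35 of the 47 genes. They ranged from −0.15 to 3.06 with an SD of 0.62, and 16 lay within the technical SD of their median. More than 4-fold higher were 7 genes (3 with normexp background correction and 0 with equal spike-in controls), where 1.85% of all genes (250 of 13513) were. The 5 genes within 2-fold were *Sis*, *Epcam*, *Cdh1*, *Dpp4* and *Ascl2*. By role the median was lowest for the stem cell gene (−0.15, 1 gene measured) and for the transcription factors (1.29), and highest for the Paneth (1.89) and enteroendocrine genes (2.56). With cyclic loess the Paneth genes (1.65) lay just below the genes of lipid and bile acid handling (1.67).

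**Figure D1:**
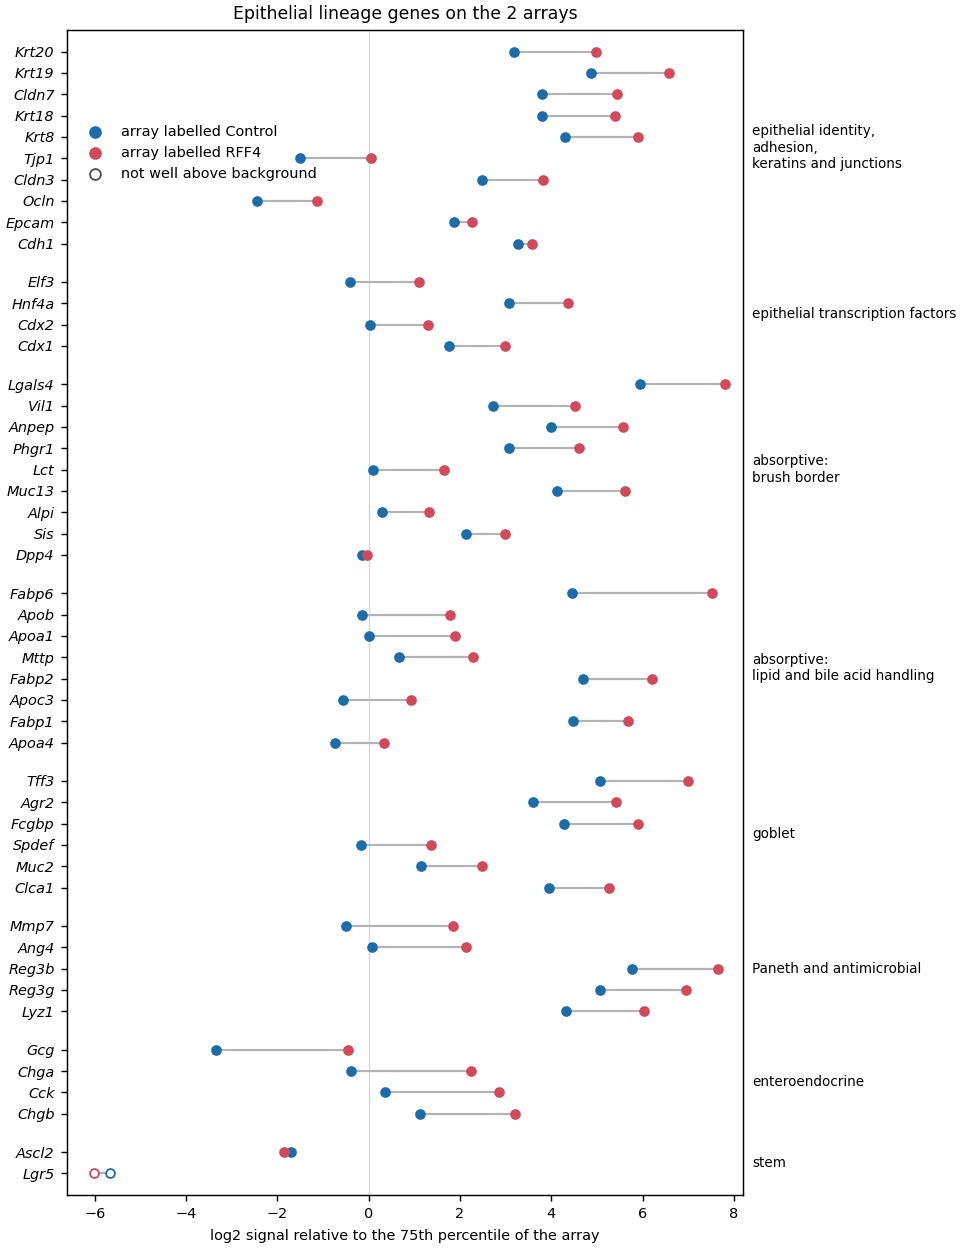
Signal of the 48 epithelial genes with a probe on the array labelled Control (blue) and the array labelled RFF4 (red), as log2 signal relative to the array's 75th percentile, grouped by role and ordered by difference. Open circles are not well above background (*Lgr5*); red lies to the right of blue for 46 of the 47 genes measured, but for 40 of 47 with the spike-in controls set equal.

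**Figure D2:**
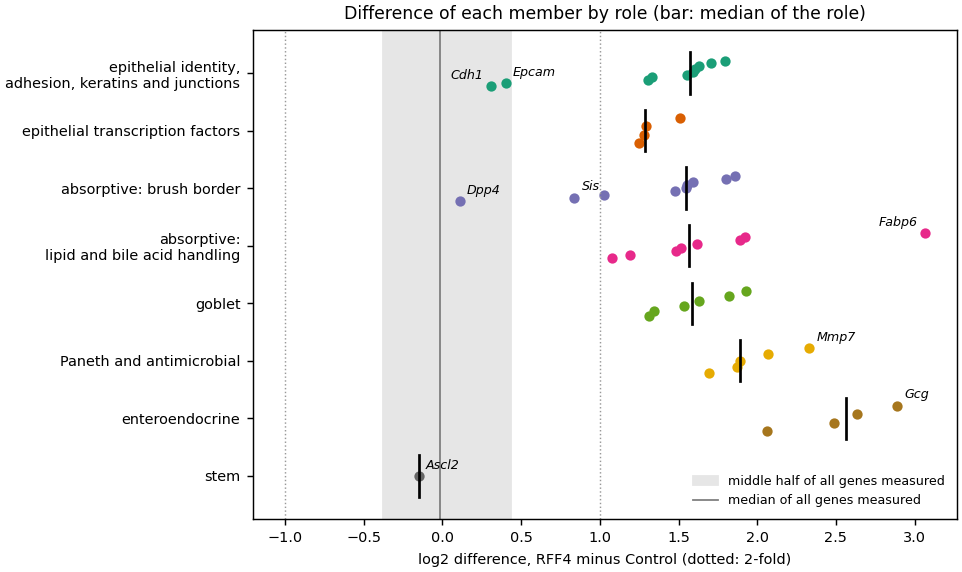
Log2 difference, RFF4 minus Control, of each of the 47 genes measured, by role, with the role's median as a bar, the median of all genes as a grey line (−0.01) and their middle quartiles shaded (−0.37 to 0.44). Every role but the stem cell gene has its median between 1.29 and 2.56, and setting the spike-in controls equal would move all points left by 1.12.

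The genes that make an epithelial sheet, keratins, claudins and their scaffolds, were 2.48- to 3.47-fold higher, whereas both adhesion molecules of the list differed little. *Krt8* and *Krt18*, which pair into the filaments of simple epithelia and are neighbours on chromosome 15, had signals of 4.30 and 5.89 and of 3.79 and 5.40. Their differences were 1.59 (3.02-fold) and 1.61 (3.05-fold). *Krt19*, a keratin of simple epithelia, went with them at 4.86 and 6.57, a difference of 1.71. *Krt20*, a keratin of the differentiated villus cells, had signals of 3.19 and 4.98 and the highest difference of this group, 1.80 (3.47-fold). The keratins thus differed by 1.59 to 1.80, close to the median of all epithelial genes. The claudins form the seal of the tight junction. *Cldn7* had signals of 3.80 and 5.43 (1.63), and *Cldn3* of 2.49 and 3.82 (1.33). The scaffold gene *Tjp1*, which encodes ZO-1, had signals of −1.51 and 0.048 (1.56). *Ocln*, encoding occludin, had signals of −2.44 and −1.13 (1.31), and its other probe, well above background only on the array labelled RFF4, was at least 1.40 higher. All 8 keratin and junction genes kept this direction with the spike-in controls set equal.

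*Epcam* and *Cdh1* stood apart from this. *Epcam*, a surface adhesion molecule by which epithelial cells are commonly recognized, had signals of 1.86 and 2.26, a difference of 0.40 (1.32-fold). *Cdh1*, encoding E-cadherin, the ligand by which IELs hold on to the epithelium, had signals of 3.26 and 3.57, a difference of 0.31 (1.24-fold) over 10 spots on each array. Both differences exceed the technical SD but rank 3591 and 4153 among the 13513 genes, whereas the other 8 genes of the group rank between 405 and 1069. Scaled to equal spike-in controls, both were lower on the array labelled RFF4, *Epcam* by 0.72 and *Cdh1* by 0.82. Each is read by a single probe sequence.

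The transcription factors of the intestinal epithelium were all more than 2-fold higher, in a narrow range from 1.25 to 1.51. *Cdx1* and *Cdx2*, homeobox factors that set intestinal identity, had signals of 1.75 and 3.0 and of 0.025 and 1.31. Their differences were 1.25 and 1.28. *Hnf4a*, a nuclear receptor that drives enterocyte genes, had signals of 3.08 and 4.37, a difference of 1.29 (2.45-fold). *Elf3*, an ETS factor of epithelial cells, had signals of −0.41 and 1.1 (1.51). All 4 lay below the median of the epithelial genes. They stayed higher with the spike-in controls set equal, with a median of 0.16, the lowest of any role with more than 1 gene.

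Cdx2 and Hnf4a bind DNA motifs in promoters of enterocyte genes, and the promoters of the epithelial genes were searched for such letters. RefSeq windows of 300 bases (250 before to 50 after the start of transcription, build GRCm38.p6) were at hand for 42 of the 49 genes, with 47 windows among 32851. The motifs were searched on both strands. The Cdx motif TTTATNGC was in 4 of the 47 windows (8.51%), those of *Alpi*, *Sis*, *Fabp1* and *Fabp2*, and in 2.66% of all windows. Its short form TTTATG, which overlaps it where N is G, was in 10 (21.3%) against 11.9% of all. The Hnf4 motif CAAAGTCCA was in 2 (4.26%), those of *Alpi* and *Muc13*, against 0.475% of all, and the letters CAAAGT within it were in 11 (23.4%) against 14.4%. The GATA motif AGATAA was in 8 (17.0%) against 11.2%, and the Hnf1 motif GTTAATNAT in 0 against 0.801%. A match is a run of letters, not a site shown to be bound. The windows are shown for the 4 genes with the longer Cdx motif and for *Fabp6*, which had the highest difference of the list. They are the 250 bases before the start, 5′ to 3′ on the strand of the gene, with the matches in capitals: the long Cdx motif and, in *Alpi*, the long Hnf4 motif, and in *Fabp6*, which has neither, the short forms of both. Matches to short forms in the other windows are left in lower case.
Alpi (chr1:87101607-87101856, minus strand): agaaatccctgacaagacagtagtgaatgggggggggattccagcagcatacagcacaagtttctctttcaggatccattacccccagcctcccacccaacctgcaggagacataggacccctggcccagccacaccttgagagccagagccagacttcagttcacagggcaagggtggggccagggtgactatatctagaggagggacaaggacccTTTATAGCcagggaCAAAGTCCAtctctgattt
Sis (chr3:72967864-72968113, minus strand): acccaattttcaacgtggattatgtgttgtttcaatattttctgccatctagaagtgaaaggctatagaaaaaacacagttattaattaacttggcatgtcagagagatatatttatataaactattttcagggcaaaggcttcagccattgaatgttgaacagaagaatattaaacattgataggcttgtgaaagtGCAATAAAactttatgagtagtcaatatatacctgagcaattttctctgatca
Fabp1 (chr6:71199629-71199878, plus strand): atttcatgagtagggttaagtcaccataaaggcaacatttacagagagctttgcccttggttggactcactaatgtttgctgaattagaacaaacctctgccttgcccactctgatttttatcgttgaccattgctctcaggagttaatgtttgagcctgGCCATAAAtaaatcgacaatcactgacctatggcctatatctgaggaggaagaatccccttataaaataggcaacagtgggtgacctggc
Fabp2 (chr3:122894822-122895071, plus strand): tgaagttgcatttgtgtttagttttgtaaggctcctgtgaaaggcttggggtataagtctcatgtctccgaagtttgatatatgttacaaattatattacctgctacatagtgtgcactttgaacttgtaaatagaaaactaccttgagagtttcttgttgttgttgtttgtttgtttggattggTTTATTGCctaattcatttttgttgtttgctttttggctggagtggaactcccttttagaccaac
Fabp6 (chr11:43601563-43601812, minus strand): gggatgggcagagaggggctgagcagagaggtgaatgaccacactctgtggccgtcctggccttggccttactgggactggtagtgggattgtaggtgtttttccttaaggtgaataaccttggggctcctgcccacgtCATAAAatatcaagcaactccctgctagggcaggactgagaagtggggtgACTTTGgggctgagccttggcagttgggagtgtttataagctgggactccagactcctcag
The Cdx motif begins 33 bases before the start in *Alpi*, 53 in *Sis*, 90 in *Fabp1* and 65 in *Fabp2*, and the Hnf4 motif of *Alpi* follows at 19. In *Sis* and *Fabp1* the motif lies on the opposite strand. The 4 genes with it differed by 0.84 to 1.51, all below the median of the epithelial genes.

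Brush border genes of the absorptive enterocyte were mostly near 3-fold higher, 7 of 9 past 2-fold. *Lgals4*, encoding galectin 4, which organizes the apical membrane, had signals of 5.95 and 7.80 (1.86, 3.62-fold), and its other probes differed by 1.77 and 1.73. *Vil1*, encoding villin, the actin bundler of microvilli, had signals of 2.73 and 4.53 (1.80). Of the digestive enzymes, *Anpep* (aminopeptidase N) had signals of 3.99 and 5.58 (1.59). *Lct* (lactase), with signals of 0.097 and 1.64, differed by nearly the same, 1.55. *Muc13*, a mucin anchored in the membrane, had signals of 4.13 and 5.61 (1.47), and *Phgr1*, a gene of gut epithelium, of 3.06 and 4.62 (1.55). The remaining enzymes of the brush border differed less. *Alpi*, the intestinal alkaline phosphatase whose promoter is shown above, had signals of 0.29 and 1.32, a difference of 1.03 just past 2-fold. *Sis* (sucrase-isomaltase) had signals of 2.14 and 2.98 and lay just within it at 0.84 (1.79-fold). *Dpp4*, a peptidase of the brush border that T cells also carry as CD26, had signals of −0.14 and −0.032, a difference of 0.11 that is smaller than the technical SD. These last 3 were lower on the array labelled RFF4 with the spike-in controls set equal, *Alpi* at −0.10, *Sis* at −0.29 and *Dpp4* at −1.01.

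Among the genes of lipid and bile acid handling, all 8 were more than 2-fold higher and *Fabp6* stood out. *Fabp6*, which binds bile acids inside enterocytes of the ileum, had signals of 4.45 and 7.51, a difference of 3.06 (8.36-fold) that ranked 33 among the 13513 genes. Its scanner signal before scaling was 11103 on the array labelled Control and 41256 on the array labelled RFF4, so it was higher on the latter without any scaling too. The fatty acid binding proteins of the same family differed far less. *Fabp2*, the intestinal form, had signals of 4.69 and 6.21 (1.51), and *Fabp1*, the form shared with liver, of 4.48 and 5.68 (1.19). The 3 genes of this family thus spanned differences from 1.19 to 3.06.

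The lipoprotein genes followed the general difference. *Apob*, the structural protein of chylomicrons, had signals of −0.14 and 1.79 (1.92, 3.80-fold), although its other probe differed by 1.13, and the mean of both was 1.53. *Mttp*, which loads lipid onto it, had signals of 0.66 and 2.28 (1.62). *Apoa1*, *Apoc3* and *Apoa4* are neighbours on chromosome 9 and encode proteins of the particle surface. *Apoa1* had signals of 0.0089 and 1.90 (1.89), *Apoc3* of −0.56 and 0.93 (1.48), and *Apoa4* of −0.74 and 0.34 (1.08). The differences of these neighbours thus spanned 1.08 to 1.89. With the spike-in controls set equal *Apoa4* was the only gene of this role that was not higher, at −0.045.

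Goblet cell genes were all more than 2-fold higher, with a median of 1.58. *Tff3*, the trefoil peptide secreted with mucus, had signals of 5.08 and 7.0 (1.93, 3.80-fold). *Agr2*, a disulfide isomerase needed to fold mucin, had signals of 3.60 and 5.42 (1.82). *Fcgbp*, a protein of the mucus gel, had signals of 4.28 and 5.91 (1.63). *Spdef*, the transcription factor of goblet cell maturation, lay below these genes of the secretory product in its difference, 1.53, with signals of −0.18 and 1.36. *Muc2*, the gel-forming mucin itself, had signals of 1.15 and 2.49 (1.34), and *Clca1*, a protease of mucus, of 3.94 and 5.25 (1.31). All 6 kept their direction under every processing tried.

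Paneth cell and antimicrobial genes were 3.24- to 5.03-fold higher, each above the median of the epithelial genes. *Mmp7*, the protease that activates defensins in mouse Paneth cells, had signals of −0.49 and 1.84 (2.33, 5.03-fold). *Ang4*, an antimicrobial ribonuclease, had signals of 0.066 and 2.13 (2.07, 4.19-fold). The lectins *Reg3b* and *Reg3g* are made by enterocytes as well, and kill or keep off bacteria at the surface. *Reg3b* had signals of 5.77 and 7.66 (1.89) and *Reg3g* of 5.07 and 6.94 (1.87). *Lyz1*, the lysozyme of Paneth cell granules, had signals of 4.33 and 6.02 (1.69, 3.24-fold). It is a close relative of the macrophage lysozyme gene *Lyz2*, and the files do not state whether its probe reads both.

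Enteroendocrine genes had the highest median difference of any role, and all 4 were past 4-fold with the scaling used. Median scaling left 3 of them past 4-fold, normexp background correction left 2, and equal spike-in controls left 0, with differences from 0.94 to 1.77. *Gcg*, which encodes proglucagon, the precursor of GLP-1, had signals of −3.34 and −0.45 over 10 spots on each array, a difference of 2.89 (7.42-fold). *Chga*, a granin of secretory granules, had signals of −0.38 and 2.25 (2.63, 6.20-fold). *Cck*, the hormone cholecystokinin, had signals of 0.36 and 2.85 (2.49, 5.62-fold). *Chgb*, the related granin, had signals of 1.13 and 3.19 over 10 spots on each array (2.06, 4.17-fold). The 4 genes thus lay between 4.17- and 7.42-fold, where all other genes of the list but *Fabp6*, *Mmp7* and *Ang4* lay under 4-fold. *Gcg* had a scanner signal of only 50.5 on the array labelled Control, and its difference moved most of the list with normexp background correction, to 1.99. *Gcg* and the brush border gene *Dpp4* are neighbours on chromosome 2, with differences of 2.89 and 0.11.

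The stem cell genes gave little to compare. *Ascl2*, a transcription factor of crypt stem cells, had signals of −1.70 and −1.85, a difference of −0.15 that is smaller than the technical SD, and the value was 0.17 with normexp background correction and −1.28, more than 2-fold lower, with equal spike-in controls. *Lgr5*, the receptor that marks these cells, had signals of −5.66 and −6.02, not well above background on either array, and no difference is given. The stem cell role therefore rests on 1 gene.

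Bright and dim epithelial genes were compared with genes of like signal, since the share of genes past 2-fold depended on signal. The genes above background on both arrays were divided into 8 bins of mean signal, and 27.0% were more than 2-fold higher in the dimmest bin and 4.81% in the brightest. The brightest bin held 17 of the epithelial genes, and all 17 were more than 2-fold higher. The next bin held 6, of which 5 were, against 4.57% of its genes, and the middle bins held 10, 4 and 4, of which 10, 4 and 2 were, against 10.6%, 8.15% and 4.76%. The dimmest bin held 0, and the 2 bins above it held 3 each, of which 2 and 2 were, against 19.6% and 13.8%.

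**Figure D3:**
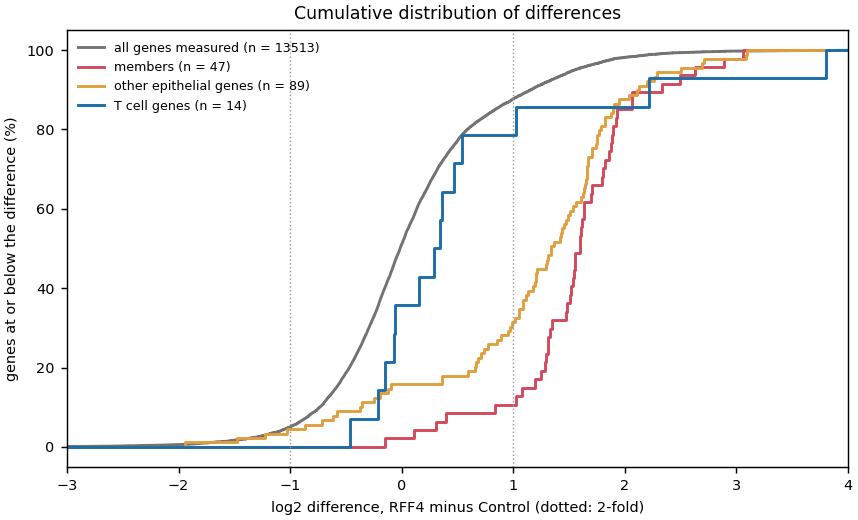
Cumulative share of genes (%) against the log2 difference, RFF4 minus Control, for all 13513 genes measured (grey), the 47 epithelial genes of the list (red), 89 other epithelial genes (orange) and 14 T cell genes (blue), with 2-fold dotted. The curves cross 50% at medians of 1.59 for the list and 1.34 for the other epithelial genes, against −0.01 for all genes and 0.32 for T cell genes; with the spike-in controls set equal the medians of the list and of all genes are 0.47 and −1.1.

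Another 101 epithelial genes outside the list were read in the same way. Of these, 89 were measured, 75 were higher (48.9% of all genes were) and 61 (68.5%) more than 2-fold higher, where 12.3% of all genes were. More than 2-fold lower were 4, where 5.05% of all genes were, and the median was 1.34. With equal spike-in controls 9 were more than 2-fold higher and 14 more than 2-fold lower, of 90 with a difference, and the median was 0.21, where 1.39% of all genes were more than 2-fold higher and 56.9% more than 2-fold lower. By group, with the scaling used, 21 of 24 absorptive genes were past 2-fold (median 1.55), 10 of 15 junction genes (1.36), 10 of 14 regulators (1.2), 8 of 12 secretory genes (1.52) and 7 of 9 enteroendocrine genes (1.95). Crypt and stem cell genes were different again, with 3 of 12 more than 2-fold higher, 2 more than 2-fold lower and a median of 0.083. With equal spike-in controls 0 of these 12 were more than 2-fold higher and 6 more than 2-fold lower, with a median of −1.04. As in the list, the enteroendocrine genes had the highest median and the stem cell genes the lowest.

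Past 4-fold were 11 of the 89 genes measured, where 1.85% of all genes were, and several belong to the roles that stood out above. With equal spike-in controls the highest difference of the other epithelial genes was 1.97, which is under 4-fold. *Slc10a2*, the transporter that takes up bile acids in the ileum, had signals of −3.97 and −0.87, a difference of 3.10 (8.55-fold), beside 3.06 for *Fabp6*. On the array labelled Control the scanner signal of *Slc10a2* was only 32.5, against 11103 for *Fabp6*. *Slc51a*, a subunit of the bile acid exporter, and *Nr1h4*, the bile acid receptor, differed by 1.82 and 1.71, and were chosen after their values were seen. The enteroendocrine genes past 4-fold were *Tph1*, which makes serotonin (2.71), *Neurog3*, the factor that specifies the lineage (2.26), and the hormones *Gip* (2.20) and *Tac1* (2.04). Among secretory genes, *Tff1*, a trefoil peptide, had signals of −0.30 and 2.79 (3.09, 8.50-fold), and *Reg4* (2.69) and *Retnlb* (2.29) were past 4-fold as well. The actin bundler *Espn* (2.5) and the junction gene *Cldn4* (2.13) were past 4-fold, and *Jup*, well above background only on the array labelled RFF4, was at least 4.31-fold higher. Scanner signals on the array labelled Control were also low for *Retnlb* (15.6), *Neurog3* (40.6), *Cldn4* (40.8), *Gip* (46.8), *Espn* (46.8) and *Tac1* (59.4). The 4 genes more than 2-fold lower, which were chosen after their values were seen, were *Dgat1*, an enzyme of triglyceride synthesis (−1.94), *Creb3l1*, a factor of secretory cells (−1.48), *Znrf3*, an inhibitor of Wnt signaling (−1.22), and *Tert*, the telomerase (−1.03).

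The labelled cell type was checked against its markers. *Cd3e*, a chain of the T cell receptor complex, had signals of 8.10 and 8.44 (0.35), *Cd8a* of 6.24 and 6.18 (−0.07) and *Ptprc*, encoding CD45, of 5.64 and 5.18 (−0.46). No probe was matched to *Itgae*, the integrin of IELs. Of 15 T cell genes listed, 14 were measured, with a median difference of 0.32 and a summed level of 11.1 and 11.6 on the log2 scale. More than 2-fold higher were 3 of them (21.4%, where 12.3% of all genes were), *Thy1* (3.80), *Cd2* (2.22) and, named after its value was seen, *Gzma* (1.02). Of the genes that the sort excluded, *Cd4* had signals of 1.67 and 1.80, and *Cd8b1* was at −3.52 on the array labelled Control and not well above background on the other.

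Markers of other cells moved with the epithelial genes. Of the macrophage and dendritic cell list, 12 of 15 genes were measured and 11 were more than 2-fold higher, where 12.3% of all genes were. The median was 2.33 and the summed level 5.82 and 7.05. *Itgax*, named after its value was seen, had signals of 5.52 and 5.73 (0.20). It made up most of the summed level on the array labelled Control. *Lyz2* differed by 2.42, *Cx3cr1* by 3.57, *Cd74* by 3.37, *H2-Aa* by 2.95 and *H2-Ab1* by 2.89. Of these, *Cx3cr1* and *Lyz2* had scanner signals of only 19.9 and 40.0 on the array labelled Control. *C1qa* and *C1qc* were well above background only on the array labelled RFF4, at least 4.71- and 5.67-fold higher, and *Mrc1* and *Flt3* on neither. Of the B and plasma cell list, 6 of 9 were measured and 5 more than 2-fold higher, with a median of 1.73, a summed level of 4.74 and 5.90 and a difference of 2.15 for *Mzb1*, while *Cd79a* and *Pax5* were well above background on neither array. The 1 gene that was lower, named after its value was seen, was *Cd79b*, with signals of 3.42 and 3.17 (−0.26). Of 12 exocrine pancreas genes, 10 were more than 2-fold higher and 6 were well above background only on the array labelled RFF4. Genes of the latter kind could only come out higher, because a bound under 1-fold gives no difference. The median of the 12 genes was 2.53. *Amy2a5*, a pancreatic amylase, went from −4.07 to 1.40 (44.1-fold), the highest difference of all 13513 genes. Its scanner signal was only 30.4 on the array labelled Control. The summed level of the 12 genes was 4.33 and 4.23, set by *Cela1*, named after its value was seen (−0.76). The 3 erythroid genes measured, of 4, were all more than 2-fold higher (median 1.16, summed level 5.46 and 6.61). With equal spike-in controls, where 1.39% of all genes were more than 2-fold higher, so were 7 of the 12 macrophage and dendritic cell genes (median 1.2), 1 of the 6 B and plasma cell genes (0.61), 9 of the 12 exocrine pancreas genes (1.41), 0 of the 3 erythroid genes (0.033) and 2 of the 14 T cell genes (−0.81). The part of these cells and of signal over background in the epithelial result was not tested.

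**Figure D4:**
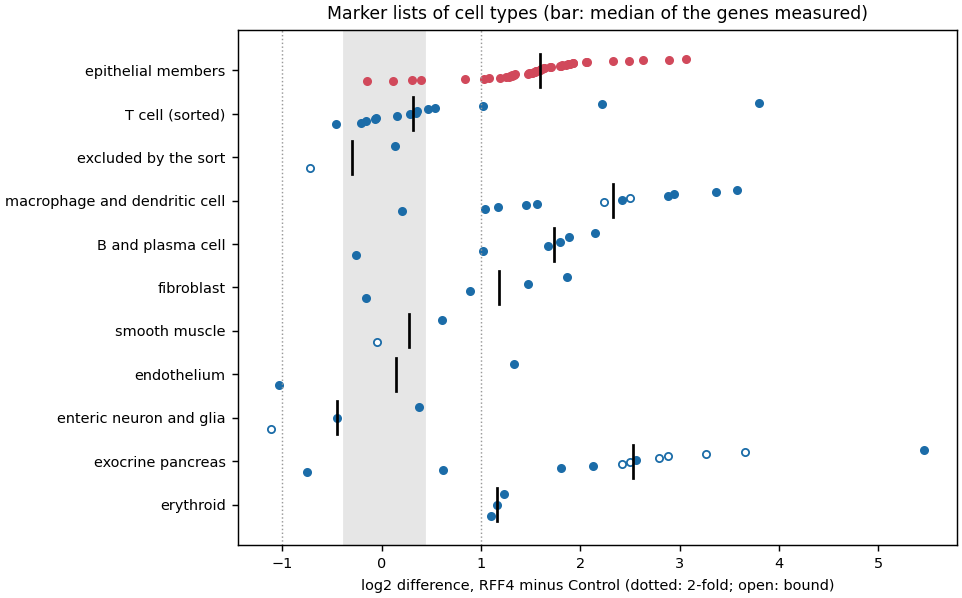
Log2 difference, RFF4 minus Control, of the epithelial genes (red) and of marker genes of other cell types (blue), with the median of each list as a bar; open circles are bounds of genes well above background on only 1 array, and the middle quartiles of all genes are shaded. The epithelial median (1.59) lies above that of T cell genes (0.32) and below those of the macrophage and dendritic cell (2.33) and exocrine pancreas lists (2.53). In the latter lists 2 and 6 genes were well above background only on the array labelled RFF4 and could only come out higher. All 47 epithelial genes measured were well above background on both arrays.

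**Figure D5:**
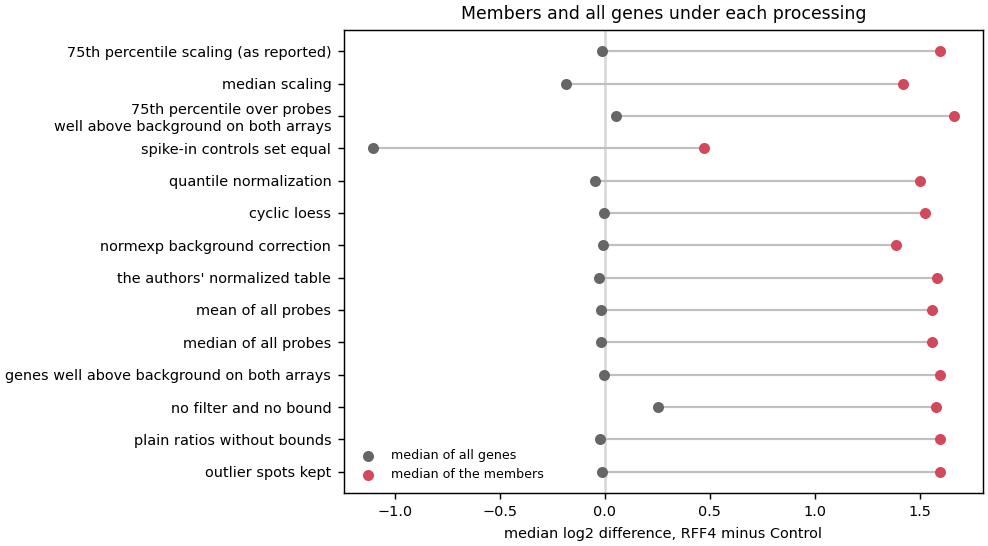
Median log2 difference, RFF4 minus Control, of the epithelial genes (red) and of all genes (grey) under each processing of the same 2 arrays. Both medians lie lowest when the spike-in controls are set equal (0.47 and −1.1), and the distance between them lies between 1.32 and 1.62.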

How the data were processed

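TCRαβ+CD8αα+ IELs were measured on 2 Agilent mouse arrays of 1 color, 1 per genotype. The authors deposited scanner output of Agilent Feature Extraction 10.7.1.1, whose intensity values are linear and background-subtracted without normalization between arrays. They also deposited a table of other values, log2 signals centered per probe by GeneSpring with settings not given in the sources used here. Its differences equal the scanner's log2 ratio plus a constant of 1.16 within 0.01 for 55231 of 55247 probes with 1 spot. It was an alternative here.

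Log2 intensities had the array's 75th percentile over gene spots subtracted (8.99 for Control, 7.82 for RFF4), without control and outlier spots (102 and 131). Spots of a probe were averaged, and 27509 of 55679 probes were matched by accession to RefSeq symbols (GRCm38.p6). The probe with the highest mean stood for a gene. A gene was kept when at least 50% of its spots were well above background on 1 array or both. Where it was so on only 1 array, the difference is a bound, taken against the detection floor of the other array or the signal there, whichever is higher. A gene whose bound was under 1-fold has no difference and is not counted as measured. The precision is limited by the number of arrays.

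The members, the lists of other cells and the motifs were chosen with earlier results of these data known. All members could be named, other genes if past 4-fold or a defining marker. No gene list was tested. Values of some listed genes are not reported here. The steps were tested on simulated data. Alternatives were median scaling, another set of probes for the percentile, spike-in controls, quantile normalization, cyclic loess, normexp (offset 50, on median spot signals), the normalized table, mean or median of a gene's probes, filters, bounds and outlier spots. R 4.3.3 with limma 3.58.1 and Python 3.11.15 (pandas 2.3.3, numpy 2.4.6, matplotlib 3.10.9) were used.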

Additional observations from a re-analysis of the deposited data

How the results depend on the processing

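The number of epithelial genes more than 2-fold higher (42) lay between 38 and 42 under every alternative but the spike-in controls set equal, which gave 5 (*Fabp6*, *Gcg*, *Chga*, *Cck* and *Mmp7*) and 2 more than 2-fold lower (*Dpp4* and *Ascl2*), where 1.39% and 56.9% of all genes were. This scaling rests on 8 controls and lowered the difference of each gene of the list by 1.12. It gave a median of 0.47 and turned the direction of *Epcam* (−0.72), *Cdh1* (−0.82), *Sis* (−0.29), *Dpp4* (−1.01), *Alpi* (−0.10) and *Apoa4* (−0.045), of which *Alpi* and *Apoa4* had been past 2-fold. *Dpp4* turned with median scaling as well, to −0.065, where 45 of 47 genes were higher. The median, 1.59 as reported, was 1.42 with median scaling and 1.38 with normexp background correction, and between 1.5 and 1.66 under the other alternatives. Genes more than 4-fold higher numbered 7 as reported, 9 with cyclic loess, 5 with median scaling, 3 with normexp and 0 with the spike-in controls. Single genes moved by more than the technical SD of 0.16 in 47 of 47 cases with median scaling and with the spike-in controls, all downward, in 45 with normexp (44 downward), in 7 with quantile normalization and 7 with cyclic loess, and in 1 with the mean or the median of a gene's probes. The enteroendocrine genes kept the highest median of any role, at 2.39 with median scaling, 2.08 with normexp and 1.44 with the spike-in controls. No paired analysis was possible because each genotype has 1 array, and for the same reason no array could be left out. *Lgr5* cannot be compared, since it was not well above background on either array.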

Other observations

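Markers of the deeper gut wall did not all move with the epithelial genes. Of 7 fibroblast genes, 4 were measured, with a median difference of 1.18, and 2 were more than 2-fold higher, where 12.3% of all genes were. Of 5 smooth muscle genes, 2 were measured, with a median of 0.28. Of 6 endothelial genes, 2 were measured, and they lay in opposite directions with a median of 0.15. Of 6 genes of enteric neurons and glia, 3 were measured, with a median of −0.45 and 0 more than 2-fold higher. Several markers of these cells, among them *Pdgfra*, *Myh11*, *Des*, *Cdh5*, *Vwf* and *S100b*, were well above background on neither array. With equal spike-in controls the medians were 0.054 (fibroblast), −0.84 (smooth muscle), −0.98 (endothelium) and −1.16 (enteric neurons and glia).

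Tuft cells, the chemosensory cells of the epithelium, were hardly measured. Of 8 genes listed, 3 gave a difference, and 2 of these were more than 2-fold higher, where 12.3% of all genes were. The median was 1.62. With equal spike-in controls 0 of 4 were more than 2-fold higher, with a median of −0.051. The defining genes *Pou2f3* and *Il25* were well above background on neither array, and *Dclk1* only on the array labelled Control, with no fold to give.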
